A study of Mus musculus with 7 samples.

Results

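The dual-specificity MAP kinase phosphatases (Dusp genes) were followed in mouse cerebellum after deletion of Cic, which encodes a transcriptional repressor. The 9 genes are those whose symbols in the count files equal Dusp1, Dusp2, Dusp4, Dusp5, Dusp6, Dusp7, Dusp8, Dusp10 and Dusp16, out of 24421 symbols, and all 9 passed the filter on low counts. RNA sequencing libraries from whole cerebella of C57BL/6 mice fell into 4 CicKO libraries, with En1-Cre and Cicflox/flox, and 3 Wildtype libraries, whose genotype field gives Cicflox/+ and names no Cre. The Wildtype animals thus carry a floxed Cic allele, effects of Cre and of Cic deletion cannot be told apart, and Cre driven by En1 acts in the midbrain and hindbrain lineage, so cells of other origin keep Cic. Age and sex are not given in the labels, which also do not state that each library is a separate animal, and p-values then measure the spread between these libraries.

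MAP kinases are switched on by phosphorylation of a threonine and a tyrosine in their activation loop, and MAP kinase phosphatases remove both phosphates. Many of these phosphatases are themselves transcribed in response to MAP kinase activity and so act as negative feedback. They differ in substrate: DUSP5, DUSP6 and DUSP7 act mainly on ERK, DUSP8, DUSP10 and DUSP16 mainly on JNK and p38, and DUSP1, DUSP2 and DUSP4 on ERK as well as on stress-activated kinases. They also differ in place, since DUSP1, DUSP2, DUSP4 and DUSP5 are nuclear, DUSP6 and DUSP7 cytoplasmic, and the JNK and p38 enzymes occur in either compartment or in both.

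CIC binds the octamers TGAATGAA, TGAATGGA, TCAATGAA and TCAATGGA, and the promoters are shown because they differ in whether these letters occur. RefSeq windows (GRCm38.p6) from 250 bases before to 50 bases after the annotated start were matched by symbol for 8 members, all but Dusp4. The octamers were searched on both strands, and capitals mark the matches, read here on the strand of the gene. Dusp6 (chr10:99262981-99263280, plus strand) held 2 copies of TCAATGGA, both on the opposite strand, starting 24 bases before the transcription start and at base 2 of the transcript. Dusp16 (chr6:134792579-134792878, minus strand) held 1 copy of TGAATGAA on the opposite strand, starting 95 bases before the start. The windows of Dusp7 (chr9:106368382-106368681, plus strand) and Dusp5 (chr19:53528895-53529194, plus strand), the other ERK-specific genes, held none. Of 32851 mouse promoter windows of this length, 3.84% held at least 1 of the octamers and 0.183% held 2 or more. A match is a match of letters, and no match says only that these letters are not in this window.
Dusp6: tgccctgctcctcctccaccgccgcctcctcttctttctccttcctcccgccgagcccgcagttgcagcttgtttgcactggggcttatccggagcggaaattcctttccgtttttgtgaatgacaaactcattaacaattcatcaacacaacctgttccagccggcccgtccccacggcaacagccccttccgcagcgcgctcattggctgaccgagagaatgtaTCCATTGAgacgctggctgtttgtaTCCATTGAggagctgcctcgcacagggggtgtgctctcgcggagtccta
Dusp7: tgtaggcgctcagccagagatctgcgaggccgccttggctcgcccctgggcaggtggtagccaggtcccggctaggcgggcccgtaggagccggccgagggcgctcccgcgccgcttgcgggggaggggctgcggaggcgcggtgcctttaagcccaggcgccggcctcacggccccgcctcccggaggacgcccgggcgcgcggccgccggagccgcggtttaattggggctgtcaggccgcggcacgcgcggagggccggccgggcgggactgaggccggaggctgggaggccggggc
Dusp5: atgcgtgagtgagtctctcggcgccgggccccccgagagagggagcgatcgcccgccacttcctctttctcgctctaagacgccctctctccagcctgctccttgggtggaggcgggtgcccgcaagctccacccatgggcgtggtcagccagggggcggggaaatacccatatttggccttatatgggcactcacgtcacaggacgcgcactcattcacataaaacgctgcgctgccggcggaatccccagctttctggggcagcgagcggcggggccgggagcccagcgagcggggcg
Dusp16: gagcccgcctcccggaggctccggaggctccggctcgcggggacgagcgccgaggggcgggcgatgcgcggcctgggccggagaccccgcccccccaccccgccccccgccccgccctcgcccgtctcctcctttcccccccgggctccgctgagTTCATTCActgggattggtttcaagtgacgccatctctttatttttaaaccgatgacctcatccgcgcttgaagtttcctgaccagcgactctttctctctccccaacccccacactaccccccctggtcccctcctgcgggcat

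The libraries held 102653765 to 121285349 gene counts. Values are CPM, a gene's reads relative to library size, scaled by TMM, a method that sets the libraries on a common scale, and 3 counts correspond to 0.0245 to 0.0295 CPM, a floor that covers counting error only. Cic, the deleted gene, was at 147, 146, 144 and 147 CPM in the CicKO libraries, against 216, 257 and 223 CPM in the Wildtype libraries (log2 fold change -0.66, SE 0.0622, edgeR adjusted p = 0.00256). Transcript thus remained in every CicKO library, and the groups did not overlap. CicKO 3 and Wildtype 3 stood apart from the rest by choroid plexus transcripts, with 8519 and 6155 CPM summed over 8 markers against 47.7 to 145 CPM in the other 5 libraries. Granule neuron markers summed to 3836 to 4736 CPM in CicKO and 4133 to 4542 CPM in Wildtype libraries, and Purkinje cell markers to 7178 to 10140 and 7257 to 8726 CPM, so the defining markers of cerebellum were present in both groups. Astrocyte and Bergmann glia markers summed to 1975 to 2284 CPM in CicKO and 2646 to 2700 CPM in Wildtype libraries, with 2 of 6 called lower (Gdf10 and Aqp4), and in bulk tissue fewer cells of a type and less RNA per cell cannot be told apart. Of the 6 astrocyte and Bergmann glia markers 5 had negative changes and 1, Hopx, a positive one (log2 fold change 0.15). Oligodendrocyte markers had 1 of 6 called lower (Cldn11), and all 6 changes were negative. Precursor markers had 1 of 4 called lower (Olig1), with 2 changes negative and 2 positive (Pdgfra 0.016 and Cspg4 0.13). Of all tested genes 0.828% were called lower. Xist, a transcript of the inactive X chromosome that marks female cells, was at 10.60 and 10.64 log2 CPM in CicKO 1 and CicKO 2 and between -1.08 and 3.88 in the other 5 libraries, so sex may be unbalanced between the groups. Dusp6 and Dusp4 were called with Xist in the fit too. The part of these differences in the results was not tested beyond the fits given beside them.

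Dusp6 and Dusp4 were higher in the CicKO cerebellum, and the other 7 phosphatases were not called in either direction. A gene was called at a Benjamini-Hochberg adjusted p below 0.05 in edgeR's quasi-likelihood test over all 16905 genes tested. By that rule 2 of 9 members were called higher and 0 lower, while 1.25% of all tested genes were called higher, 0.828% lower and 2.08% in either direction. Among the members 5 of 9 had an unadjusted p below 0.05, the 2 called and 3 that fell short. Those 3 were Dusp5 and Dusp7, with negative changes, and Dusp10, with a positive one. DESeq2 called Dusp5 and Dusp7 lower and Dusp10 higher, and limma-voom called 0 of these 3. In either direction, 16.2% of all genes had an unadjusted p below 0.05, and the calls covered 6.87% of genes in DESeq2 and 1.93% in limma-voom. The groups did not overlap for 5 members, 3 of them higher and 2 lower in CicKO. Among all genes tested 15.4% did not overlap, 7.06% higher and 8.36% lower. The members were chosen with earlier results of these data known, so these counts are a description.

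**Figure D1:**
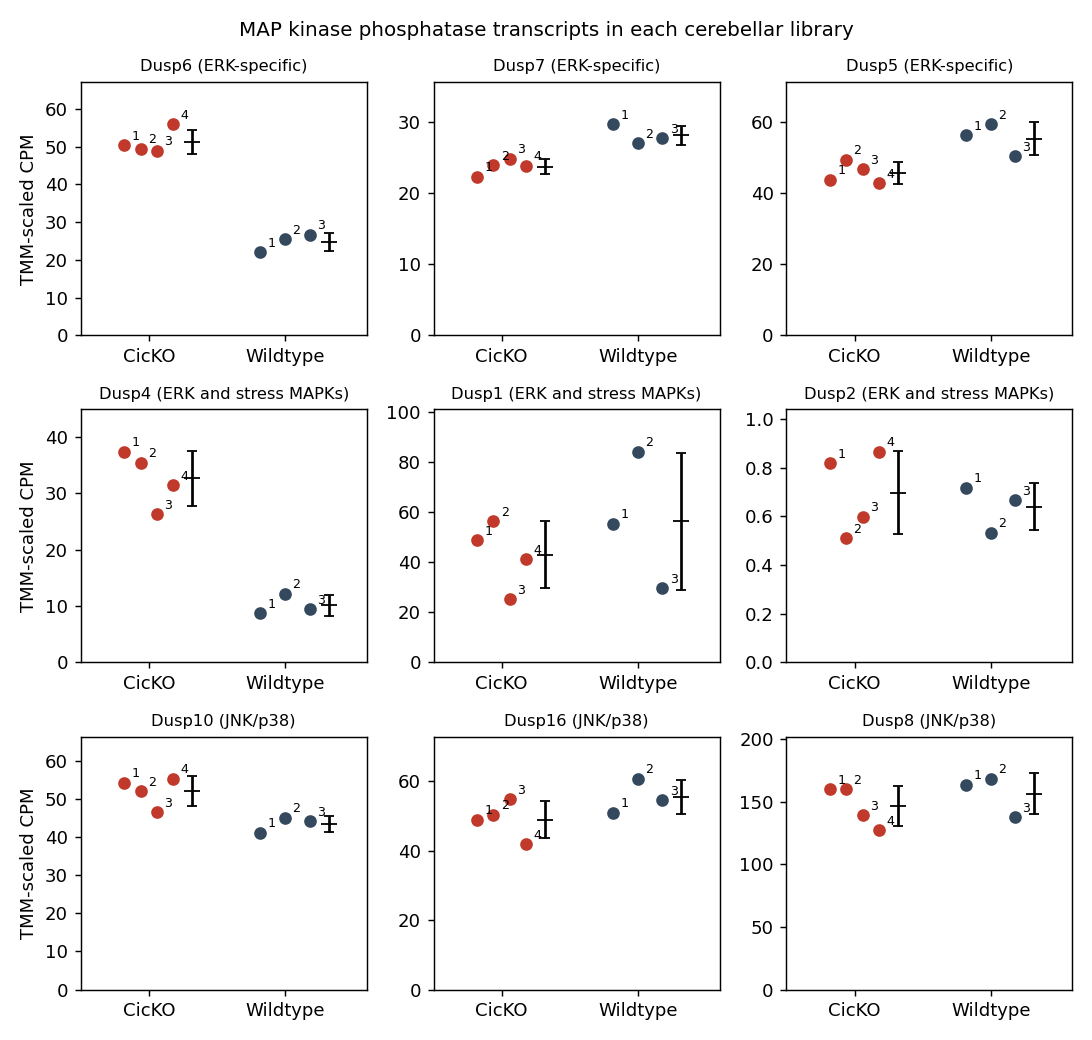
TMM-scaled CPM (vertical axes, from 0) of the 9 phosphatase genes in each library, with CicKO at left and Wildtype at right and 1 row per substrate class; numbers mark the replicate and bars the mean ± SD. Dusp6 and Dusp4 lie higher in every CicKO library, Dusp10 narrowly so, and Dusp7 and Dusp5 lie lower in every CicKO library.

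Among the ERK-specific enzymes, Dusp6 rose while its relatives Dusp7 and Dusp5 lay below the Wildtype range. Dusp6, the cytoplasmic ERK phosphatase that is transcribed in response to growth factor signalling, lies on chromosome 10 at 99263231 to 99267489 and overlaps no other annotated gene. It was at 50.4, 49.5, 49.0 and 55.9 CPM in the CicKO libraries, against 22.1, 25.5 and 26.7 CPM in the Wildtype libraries. The lowest CicKO library was well above the highest Wildtype library. The fold change was 2.07 (log2 fold change 1.05, SE 0.0797, edgeR adjusted p = 0.00105), and Dusp6 was called under all 19 alternative settings, with log2 fold changes of 0.98 to 1.13.

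Dusp7, a cytoplasmic ERK phosphatase closely related to Dusp6, was at 22.3, 23.9, 24.9 and 23.8 CPM in the CicKO libraries, against 29.7, 27.1 and 27.8 CPM in the Wildtype libraries. The groups did not overlap, but the gap between the closest libraries was small. The log2 fold change was -0.25 (SE 0.0578, 95% interval -0.38 to -0.11), which was not called in edgeR (adjusted p = 0.0755). It passed without CicKO 3 (adjusted p = 0.0468) and in DESeq2 (adjusted p = 0.00774), and its adjusted p spanned 0.00774 to 0.493 under the alternatives. Dusp7 lies on chromosome 9 at 106368632 to 106375724.

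Dusp5, the nuclear ERK-specific phosphatase, was at 43.7, 49.4, 46.8 and 42.8 CPM in the CicKO libraries, against 56.3, 59.3 and 50.4 CPM in the Wildtype libraries. The highest CicKO library, CicKO 2, lay just below the lowest Wildtype library, Wildtype 3. The log2 fold change was -0.28 (SE 0.0732, 95% interval -0.44 to -0.11), which was not called in edgeR (adjusted p = 0.106) and passed in DESeq2 alone (adjusted p = 0.0159). Dusp5 lies on chromosome 19 at 53529109 to 53542431 and shares 547 exon bases with an antisense gene, and the strand setting of the counting is not given in the sources used here, so its reads and those of the antisense gene cannot be told apart.

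Set against each other per length of exon, the ERK-specific transcripts changed in make-up more than in sum. The sum of Dusp5, Dusp6 and Dusp7 was 40.4 to 42.9 CPM per kb in CicKO and 37.2 to 40.2 CPM per kb in Wildtype libraries. The sum was thus narrowly higher in every CicKO library, without overlap. Dusp6 made up 39.0 ± 2.51% of that sum in CicKO (SD, n = 4) and 20.5 ± 2.36% in Wildtype (n = 3). Dusp5 made up 44.1 ± 2.39% in CicKO and 57.8 ± 2.61% in Wildtype, and Dusp7 16.9 ± 0.541% and 21.7 ± 1.46%. The cytoplasmic ERK phosphatase Dusp6 thus stood near the nuclear Dusp5 in CicKO libraries and well under it in Wildtype libraries. Shares of a sum are tied to each other, so a rise of Dusp6 by itself lowers the shares of Dusp5 and Dusp7.

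Of the phosphatases that act on ERK as well as on stress-activated kinases, Dusp4 rose, and neither Dusp1 nor Dusp2 was called. Dusp4, a nuclear phosphatase of ERK, JNK and p38, lies on chromosome 8 at 34807297 to 34819894 and overlaps no other annotated gene. It was at 37.3, 35.4, 26.2 and 31.4 CPM in the CicKO libraries, against 8.71, 12.2 and 9.47 CPM in the Wildtype libraries. Every CicKO library was far above the highest Wildtype library, and CicKO 3 was the lowest of its group. The fold change was 3.22 (log2 fold change 1.69, SE 0.157, edgeR adjusted p = 0.00276). Dusp4 was called under 18 of 19 alternatives and not when the share of reads falling outside genes was a term of the fit (log2 fold change 1.52, adjusted p = 0.0691). That share was 18.2% to 19.0% in CicKO and 16.02% to 18.6% in Wildtype libraries, and its part in the result was not tested further.

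Dusp1, the founding nuclear phosphatase of the family and an immediate early gene, was at 48.9, 56.6, 25.3 and 41.3 CPM in the CicKO libraries, against 55.5, 84.3 and 29.7 CPM in the Wildtype libraries. The groups overlapped over most of their range, and replicate 3 was the lowest in both. Between libraries of the same number Dusp1 was lower in CicKO in 3 of 3 pairs, and CicKO 4 has no partner. Dusp5 and Dusp7 were also lower in 3 of 3, Dusp2, Dusp8 and Dusp16 in 2, and Dusp4, Dusp6 and Dusp10 in 0. That the numbers pair the libraries could not be shown. The log2 fold change of Dusp1 was -0.39 (SE 0.408, 95% interval -1.38 to 0.60, edgeR adjusted p = 0.695), which leaves changes of over 2-fold downward inside the interval. Its coefficient of variation was 31.1% in CicKO and 48.4% in Wildtype libraries, the highest of the 9 members in both groups. Without Wildtype 2, the highest library, the log2 fold change was 0.013 (adjusted p = 0.991), and with the replicate block, a term for the replicate number, it was -0.33 (adjusted p = 0.0831). Dusp1 is annotated on chromosome 17 at 26505590 to 26562128, where it shares 11 exon bases with overlapping genes.

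The libraries with high or low Dusp1 were largely those with high or low immediate early genes, transcripts that rise within minutes of neuronal activity or stress. Fos, Egr1 and Nr4a1 were picked for display after their values had been seen. Fos was at 70.9, 101, 32.2 and 34.996 CPM in CicKO and 60.5, 97.5 and 27.6 CPM in Wildtype libraries, and Nr4a1 at 42.6, 65.0, 35.3 and 25.5 CPM and at 41.2, 66.5 and 29.3 CPM. Egr1 was at 45.8, 45.7, 17.5 and 41.9 CPM in CicKO and 40.3, 51.9 and 28.5 CPM in Wildtype libraries. For Fos and Nr4a1 the highest library in each group was also the highest for Dusp1, which for Egr1 held in Wildtype alone. Of 12 listed early genes, 11 were lowest in Wildtype 3 among the Wildtype libraries and 8 were highest in Wildtype 2, while CicKO 3 and CicKO 4 each held the lowest value of 6 among the CicKO libraries and CicKO 2 the highest of 8. The summed level of the list was 196 to 365 CPM in CicKO and 201 to 383 CPM in Wildtype libraries. Dusp6 and Dusp4 were above their means over the 7 libraries in all CicKO and below them in all Wildtype libraries. The part of these genes in the level of Dusp1 was not tested.

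**Figure D2:**
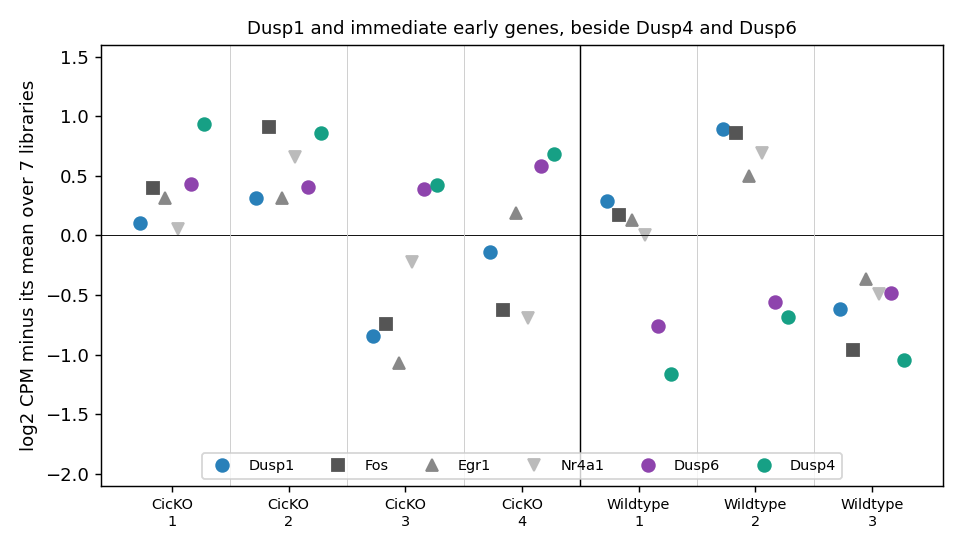
Log2 CPM minus its mean over the 7 libraries (vertical axis) for Dusp1, Fos, Egr1, Nr4a1, Dusp6 and Dusp4 in each library, CicKO left of Wildtype. Dusp1 and Fos are low in CicKO 3 and Wildtype 3 and high in Wildtype 2. Fos is also low in CicKO 4, where Dusp1 lies nearer its mean. Dusp6 and Dusp4 are above 0 in every CicKO library and below 0 in every Wildtype library.

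Dusp2, a nuclear phosphatase best known from activated immune cells, was barely present. It had 52 to 91 counts per library, or 0.817, 0.509, 0.598 and 0.865 CPM in CicKO and 0.718, 0.533 and 0.666 CPM in Wildtype libraries. The groups overlapped fully, with a log2 fold change of 0.12 (SE 0.244, 95% interval -0.43 to 0.68, edgeR adjusted p = 0.848). With the replicate block its sign turned (-0.0071).

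Within the class that acts on ERK and stress-activated kinases, Dusp4 made up 47.9 ± 4.99% of the summed CPM per kb in CicKO and 19.2 ± 6.89% in Wildtype libraries. Dusp1 made up 50.6 ± 5.31% and 79.1 ± 7.67%, and a rise of Dusp4 by itself lowers the share of Dusp1. The class sum overlapped between groups, at 17.5 to 30.3 CPM per kb in CicKO and 12.7 to 30.2 CPM per kb in Wildtype libraries, a spread that follows Dusp1.

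None of the 3 phosphatases of JNK and p38 was called, and their changes were small in edgeR. One of them, Dusp10, was at 54.2, 51.9, 46.5 and 55.2 CPM in the CicKO libraries, against 41.1, 45.1 and 44.1 CPM in the Wildtype libraries. All CicKO libraries lay above all Wildtype libraries, CicKO 3 only just. The log2 fold change was 0.26 (SE 0.0691, 95% interval 0.10 to 0.42, edgeR adjusted p = 0.109), and it passed without CicKO 3 (adjusted p = 0.0204) and in DESeq2 (adjusted p = 0.0164), with a span of 0.0164 to 0.561 under the alternatives. Dusp10 lies on chromosome 1 at 184013302 to 184075636 and shares no exon base with the gene that overlaps it.

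Dusp16, a JNK phosphatase, was at 48.9, 50.4, 54.8 and 41.9 CPM in CicKO and 50.9, 60.8 and 54.7 CPM in Wildtype libraries (chromosome 6, 134715468 to 134792625). The groups overlapped, with a log2 fold change of -0.18 (SE 0.0955, 95% interval -0.40 to 0.040, edgeR adjusted p = 0.408). Its promoter window held 1 octamer, so of the 2 members with an octamer there 1 was called and 1 was not. Dusp8, a JNK and p38 phosphatase enriched in brain, was at 160, 160, 139 and 127 CPM in CicKO and 163, 168 and 137 CPM in Wildtype libraries (chromosome 7, 142079490 to 142095843). The groups overlapped here too, with a log2 fold change of -0.09 (SE 0.101, 95% interval -0.32 to 0.14, edgeR adjusted p = 0.703). Dusp8 shares 66 exon bases with a non-coding gene on the opposite strand.

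By class, 1 of 3 ERK-specific genes was called higher, the class median being -0.25 in log2 fold change, and 0 of 3 JNK and p38 genes were called in edgeR, with a median of -0.09. Over all genes edgeR called 1.25% higher and 0.828% lower, so 0 of 3 does not set the JNK and p38 genes apart from other genes. At an unadjusted p below 0.05 the counts of these 2 classes were 3 and 1, where 16.2% of all genes passed. DESeq2 called 1 higher and 2 lower of the ERK-specific genes and 1 higher of the JNK and p38 genes. With limma-voom the counts were 1 and 0. Over all genes DESeq2 called 6.87% and limma-voom 1.93% in either direction. Of the class that acts on both kinds of kinase 1 of 3 was called higher, with a median of 0.12. Over all genes tested the median log2 fold change was -0.0044, with quartiles of -0.10 and 0.11. The class median of the ERK-specific genes is that of Dusp7. The class held both the second largest rise and 2 negative changes that edgeR did not call. Whether direction goes with substrate class was not tested.

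**Figure D3:**
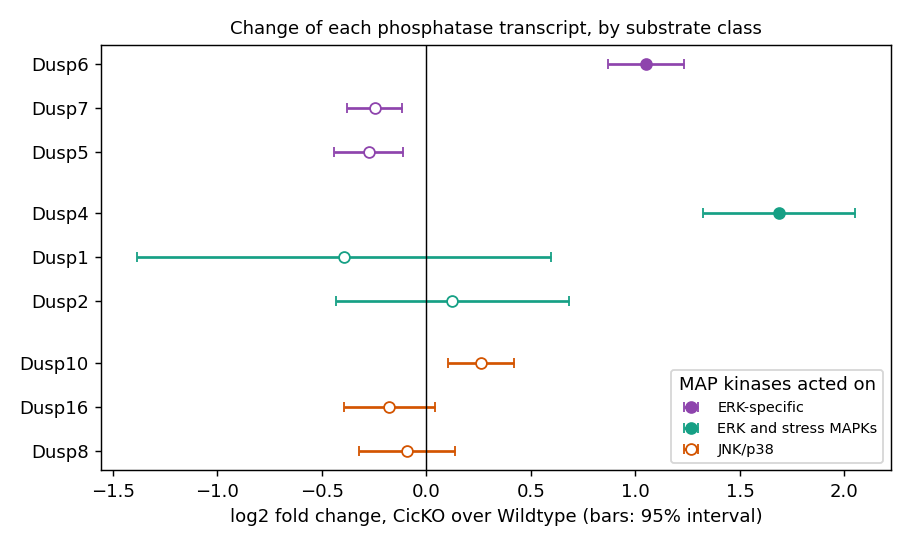
Log2 fold change of CicKO over Wildtype (horizontal axis) with 95% intervals for the 9 members, coloured by the MAP kinases they act on; filled points were called in edgeR and open points were not. Dusp6 and Dusp4 lie at 1.05 and 1.69, and the other members lie between -0.39 and 0.26.

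A gene that passed and one that did not need not differ from each other, so the log2 ratio of each pair of members was compared between groups by a two-sided exact permutation over the 35 ways to assign the 7 libraries to groups of 4 and 3. With 36 pairs the smallest possible p, 0.0286, was reached by 16 pairs, but 0 passed 0.05 after adjustment over the 36 (smallest adjusted p = 0.0643). The log2 ratio of Dusp6 to Dusp7 was 1.11 in CicKO and -0.19 in Wildtype libraries, a difference of 1.30 (exact p = 0.0286, adjusted p = 0.0643), with no overlap between groups. The log2 ratio of Dusp4 to Dusp6 was -0.66 in CicKO and -1.30 in Wildtype libraries, a difference of 0.64 at the same p values. A larger change of Dusp4 than of Dusp6 thus did not pass after adjustment. Against the JNK and p38 genes, the ratio of Dusp6 differed by 0.79 (Dusp10) to 1.23 (Dusp16), again without overlap. For Dusp5 to Dusp7 the log2 ratio was 0.94 in CicKO and 0.97 in Wildtype libraries (difference -0.030, exact p = 0.743). Ratios were without overlap in 19 pairs, of which 14 contain Dusp4 or Dusp6 and so largely restate those calls.

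**Figure D4:**
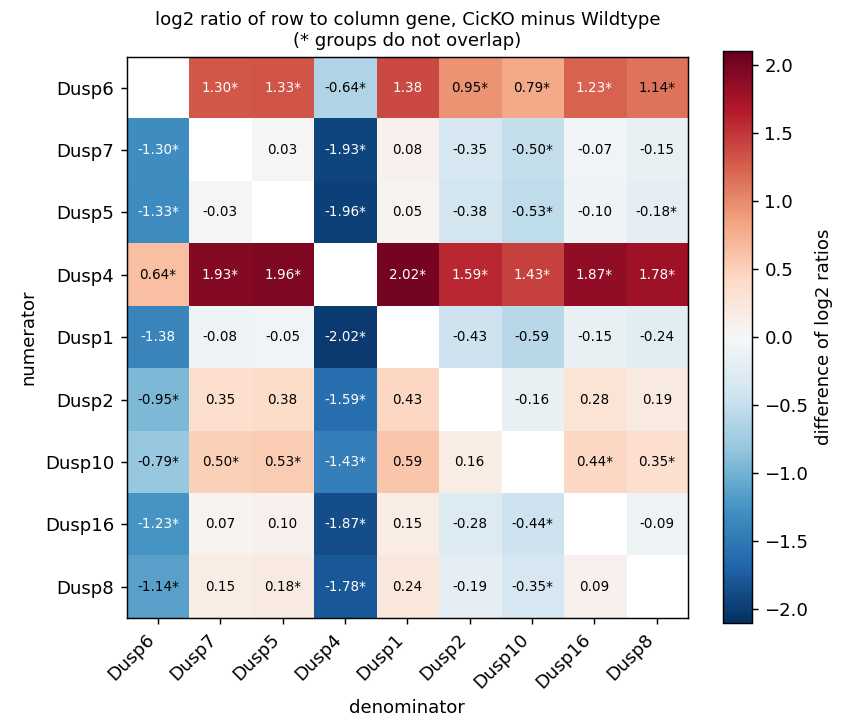
Difference between CicKO and Wildtype in the mean log2 ratio of the row gene to the column gene, for all pairs of members; asterisks mark pairs whose ratios did not overlap between groups. The Dusp4 row is positive throughout and highest against Dusp1 (-2.02 when read as Dusp1 to Dusp4), and the Dusp6 row is positive against all members but Dusp4.

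Per length of exon, Dusp8 was the most abundant member in every library and Dusp2 the least. In Wildtype libraries the order was Dusp8 (32.1 ± 3.40 CPM per kb), Dusp5 (22.4 ± 1.82), Dusp1 (17.1 ± 8.26), Dusp10 (14.3 ± 0.674), Dusp7 (8.39 ± 0.400), Dusp6 (7.90 ± 0.765), Dusp16 (7.11 ± 0.635), Dusp4 (3.69 ± 0.668) and Dusp2 (0.319 ± 0.0478), each as mean CPM per kb ± SD over 3 libraries. Neighbours whose ranges overlapped were Dusp5 with Dusp1, Dusp1 with Dusp10, Dusp7 with Dusp6 and Dusp6 with Dusp16. In CicKO libraries Dusp6 reached 16.3 ± 1.02 CPM per kb, with a range that overlapped those of Dusp10 (17.1 ± 1.28) and Dusp1 (13.0 ± 4.04), and Dusp4 reached 11.9 ± 1.79. The 9 members together summed to 110 to 130 CPM per kb in CicKO and 99.6 to 127 CPM per kb in Wildtype libraries, ranges that overlapped. Dusp4 held 9.82 ± 0.873% of that sum in CicKO and 3.26 ± 0.378% in Wildtype, and Dusp6 13.6 ± 1.42% and 7.07 ± 1.29%.

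**Figure D5:**
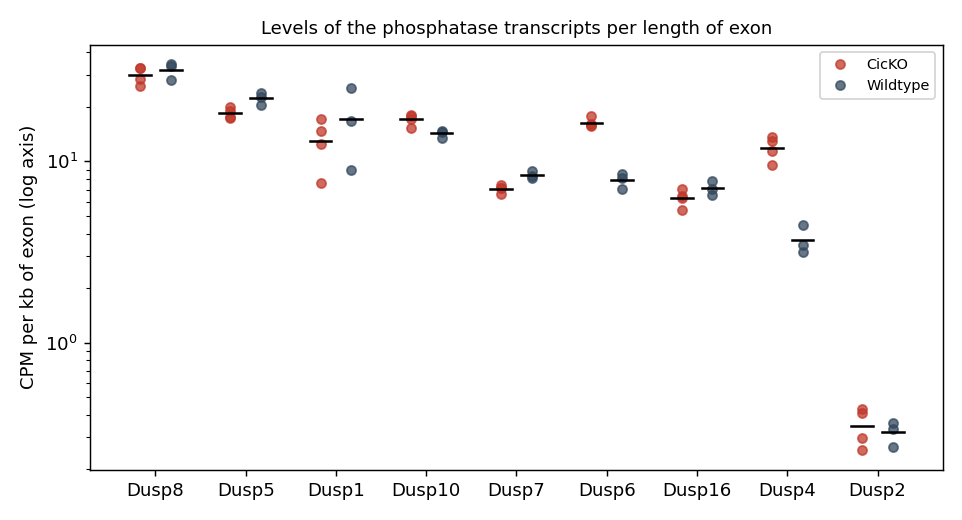
CPM per kb of exon (log axis) of each member in every library, CicKO left of Wildtype, ordered by the Wildtype mean (black lines are group means). Dusp6 and Dusp4 are separated from their Wildtype values by the widest gaps, and Dusp2 lies far below the rest.

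The genes whose profiles were most like those of the called members were sought among 13265 genes by the root mean square difference over the 7 libraries in log2 CPM relative to the Wildtype mean. Closest to Dusp6 were Pafah1b3 (0.104), Spred3 (0.108), Arhgap24 (0.111) and Tnfrsf11b (0.134). Spred3, an inhibitor of the RAS to ERK pathway, averaged 60.1 ± 0.624 CPM in CicKO and 29.5 ± 2.56 CPM in Wildtype libraries. Pafah1b3, an acetylhydrolase subunit gene that lies next to Cic on chromosome 7, averaged 30.0 ± 1.83 CPM in CicKO and 15.1 ± 1.71 CPM in Wildtype libraries. Closest to Dusp4 were Pla2g3 (0.185), Gpr3 (0.230), Vmn2r2 (0.233) and Hdc (0.269). Hdc, the histidine decarboxylase of histamine synthesis, averaged 23.2 ± 4.23 CPM in CicKO and 8.60 ± 0.697 CPM in Wildtype libraries, and like Dusp4 was lowest in CicKO 3 among the CicKO libraries. Spred3, Pla2g3 and Gpr3 share 202, 401 and 204 exon bases with genes on the opposite strand and Vmn2r2 belongs to a large receptor family, so their counts are uncertain. All 8 of these genes were called higher in edgeR, which likeness to a called gene brings with it.

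Elsewhere in the phosphatase family 1 gene was called in edgeR. Of 17 other genes with Dusp or Styx names 16 were tested, and 1 was called higher and 0 lower. Over all genes edgeR called 1.25% higher and 0.828% lower. An unadjusted p below 0.05 was reached by 2 of the 16, a share near the 16.2% of all genes. DESeq2 called 1 higher and 0 lower, and over all genes 6.87% in either direction. The called gene, Dusp15, encodes an atypical phosphatase without the kinase-binding domain of the classical family and is known from oligodendrocyte differentiation. It was at 57.5, 59.0, 54.4 and 57.3 CPM in CicKO and 35.5, 40.4 and 35.03 CPM in Wildtype libraries (log2 fold change 0.63, SE 0.0633, edgeR adjusted p = 0.00303). Every CicKO library was above every Wildtype library. Of the 6 oligodendrocyte markers 1 was called lower and the other 5 overlapped between groups, and the part of these cells in the level of Dusp15 was not tested. With the share of reads falling outside genes in the fit, Dusp15 was not called (adjusted p = 0.0625).

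Of 7 phosphatases of other families that act on MAP kinases or on their pathway, 0 were called in edgeR. Over all genes edgeR called 2.08% in either direction. An unadjusted p below 0.05 was reached by 3 of the 7, against 16.2% of all genes. DESeq2 called 1 of the 7 higher, and over all genes 6.87% in either direction. Ptpn5, the striatum-enriched tyrosine phosphatase of ERK and p38, was at 57.8, 58.6, 94.1 and 55.7 CPM in CicKO and 32.3, 22.8 and 32.8 CPM in Wildtype libraries. The groups did not overlap and CicKO 3 stood high (log2 fold change 1.18, SE 0.230, edgeR adjusted p = 0.0561). It passed under 8 of 19 alternatives, the replicate block (adjusted p = 0.0138) and the fit without CicKO 3 among them, with adjusted p between 0.000575 and 0.319. Midbrain and pons markers, of which 2 of 5 passed the filter, summed to 31.7 to 63.5 CPM in CicKO and 10.99 to 29.6 CPM in Wildtype libraries, highest in CicKO 3, and their part in the level of Ptpn5 was not tested. Ppp2cb, a catalytic subunit of protein phosphatase 2A, had a log2 fold change of -0.13 (edgeR adjusted p = 0.282).

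The kinases on which these phosphatases act, and the kinases upstream, held no called gene. For the lists that follow, the shares over all genes were 1.25% called higher and 0.828% lower in edgeR. DESeq2 called 6.87% of genes in either direction, and 16.2% had an unadjusted p below 0.05 in edgeR. Of 12 genes of the ERK cascade, 0 were called in edgeR or DESeq2 and 0 had an unadjusted p below 0.05, and log2 fold changes spanned -0.10 (Mapk3, which encodes ERK1, edgeR adjusted p = 0.375) to 0.07 (Braf, edgeR adjusted p = 0.567). Of 16 genes of the JNK and p38 cascades 0 were called in edgeR or DESeq2 and 1 had an unadjusted p below 0.05, Map3k1 (log2 fold change 0.18, edgeR adjusted p = 0.227), followed by Mapk9, which encodes JNK2 (0.10, edgeR adjusted p = 0.315). The medians of the cascades were -0.02 and 0.01. Of 6 tested Sprouty and Spred inhibitors 2 were called higher and 0 lower in edgeR, namely Spred3 (log2 fold change 1.03) and Spry4 (1.31), with 3 at an unadjusted p below 0.05 and 3 higher in DESeq2. Of the 12 early genes 0 were called in edgeR or DESeq2 and 1, Fosl2, had an unadjusted p below 0.05. Fosl2 was at 7.21 ± 3.05 CPM in CicKO and 16.5 ± 8.72 CPM in Wildtype libraries (edgeR adjusted p = 0.253, or 0.0214 with the replicate block). Its groups only just failed to overlap, with 11.05 CPM in CicKO 2 and 11.18 CPM in Wildtype 3, and Wildtype 2 stood high at 26.6 CPM. Fosb followed at a log2 fold change of -0.79 (edgeR adjusted p = 0.563).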

How the data were processed

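RNA from cerebella was sequenced in 7 libraries, each used as 1 replicate. Each deposited file gives the authors' raw read counts by gene symbol for 1 library, without normalization. STAR 2.5.3a, HTSeq, DESeq2 and build mm10 are named per the submitters' processing notes, and the annotation, strand setting and versions of HTSeq and DESeq2 were not given in the sources used here. The 5 HTSeq summary rows, of which reads outside annotated genes made up 16.02% to 19.0% of entries and ambiguous reads 1.27% to 1.37%, were left out of library sizes and tests.

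Counts were analysed in R 4.3.3 with edgeR 4.0.16 (filterByExpr, TMM, robust quasi-likelihood F test, genotype as the only term, Benjamini-Hochberg adjustment over 16905 genes). A standard error is the size of the log2 fold change over the root of F. Log2 CPM used a prior count of 2. Levels per kb used the union of exons in GENCODE M21 (GRCm38, called mm10), and promoter windows were RefSeq's. Alternatives were DESeq2 1.42.0, limma-voom (limma 3.58.1), other scalings and filters, covariates, a replicate block and omitted libraries. The test was tried on simulated counts.

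No library was a copy of another: within groups, pairs showed 18.5 to 157 times the variance of sampling alone. To check pairing, each library's deviations from its group mean were correlated across genes. Pairs that share a number gave 0.145, 0.288 and 0.713, where 0.1 was required. The highest value was that of CicKO 3 and Wildtype 3, the libraries with high choroid plexus transcripts. Libraries of different numbers passed too, CicKO 1 with Wildtype 2 at 0.319. CicKO 4, which has no partner, gave 0.187 with Wildtype 1 and 0.297 with Wildtype 2. The check therefore cannot show that the numbers pair the libraries, and the replicate block was kept as an alternative only. Blocked values are given where they change a call.

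The members, gene lists, tests and alternatives were chosen with earlier results of these data known. All members were named. Of each pathway list up to 4 called genes with the smallest adjusted p were named, or the 2 with the smallest where none was called, and the 4 genes of a mean of at least 1 CPM most like each called member, leaving out unnamed gene models.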

Additional observations from a re-analysis of the deposited data

How the results depend on the processing

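Dusp6 was called under all 19 alternatives and Dusp4 under 18. The members called higher numbered 2 under most settings, 3 in DESeq2, 2 to 3 when 1 library was left out, and 1 with the share of reads falling outside genes in the fit; those called lower numbered 0, or 2 in DESeq2 and 0 to 1 when 1 library was left out. Over all genes 212 were called higher and 140 lower. These counts were 673 and 497 in DESeq2, 380 and 314 with the choroid plexus score, 73 and 31 with Xist, and 46 and 12 with the share of reads falling outside genes. They ranged from 65 to 493 and from 21 to 349 when 1 library was left out, with the highest counts without CicKO 3; leaving out any 1 of the 7 moved the count called higher by over 1.5 times. The replicate block gave 310 and 204. The block turned the sign of Dusp2 (-0.0071) and brought Fosl2 and Ptpn5 past the threshold, and it changed no other call of a member or listed gene named here. The log2 fold change of Dusp1 reversed without Wildtype 2 (0.013), and spanned -0.70 to 0.013 when 1 library was left out. Pairs of members without overlap numbered 19, or 19 to 21 with 1 library left out. Dusp2 had no value with the filter of 1 CPM in 3 libraries. The cause was not tested for any of these shifts. Depth was ample for all members but Dusp2, with 52 to 91 counts per library.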

Other observations

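Several relatives of the phosphatases were scarce in these cerebella. Dusp9, the third cytoplasmic ERK phosphatase beside Dusp6 and Dusp7, averaged 0.150 ± 0.0665 CPM in CicKO and 0.188 ± 0.0444 CPM in Wildtype libraries. Dusp13 averaged 0.155 ± 0.0485 and 0.179 ± 0.0341 CPM, and Ptpn7, a tyrosine phosphatase of ERK in blood cells, 0.0950 ± 0.0150 and 0.128 ± 0.0132 CPM (SD, n = 4 CicKO and 3 Wildtype). Dusp11, an RNA phosphatase, was at 228 ± 17.2 CPM in CicKO and 191 ± 30.0 CPM in Wildtype libraries (log2 fold change 0.25, edgeR adjusted p = 0.286).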
